A study of Gallus gallus with 8 samples.

Results

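The genes described here build, remove and read retinoic acid, and they were followed in sorted otic and epibranchial cells of the chick embryo. They were taken from the deposited count table by name. RDH10 and DHRS3 interconvert retinol and retinal, ALDH1A1, ALDH1A2 and ALDH1A3 oxidise retinal to retinoic acid, CYP26A1, CYP26B1 and CYP26C1 break retinoic acid down, and RARA and RARB encode nuclear receptors. All 10 names were present, each as a single row of the 24356 genes in the table, and all 10 passed the filter on low counts that 16861 genes passed.

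Retinoic acid is a small diffusible signal made from vitamin A. Cells that express an ALDH1A enzyme release it, cells that express a CYP26 enzyme clear it, and in between it binds RAR and RXR receptors on DNA and switches on target genes, which in many vertebrates include RARB, CYP26A1, DHRS3 and several HOX genes. In vertebrate embryos, retinoic acid from the trunk mesoderm patterns the hindbrain and pharyngeal region, and it also acts on the ear.

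Chick (Gallus gallus) embryos were electroporated in ovo at somite stage (ss) 3 to 6 (ss3 to ss5 according to the treatment label) with a plasmid in which an enhancer drives EGFP through a minimal promoter, aimed at the otic-epibranchial progenitor territory. The enhancer was Lmx1aE1, active in the otic placode, in 1 group and Sox3U3, used to mark epibranchial cells, in the other. Embryos were collected at ss18 to ss21, EGFP+ cells were sorted, and each library was made from 2000 cells, with 4 libraries per group. A group therefore held the cells in which its plasmid was taken up and its enhancer was active, and both groups carried an electroporated reporter. The study describes both a dissection of the ear region and the use of whole heads, and which of them applied to these libraries, and so which other tissues could be in the sorted suspension, was not settled. How many embryos went into a library is not given in the sources used here, so that the p-values measure the spread between these libraries, and no unsorted or unelectroporated cells were compared.

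The libraries held 6559872 to 45183366 counts, and each group had 2 libraries above and 2 below 15000000 counts. Marker lists were set beside the labels by their summed CPM in each library (counts relative to the library total, scaled by edgeR's TMM factors). These sums are no independent check of the labels, because the lists were written with earlier results of these data known. The otic and epibranchial lists also hold LMX1A and SOX3, the genes after which the enhancers are named. Otic markers summed to 972 to 1208 CPM in the Lmx1aE1-EGFP+ libraries and 341 to 390 in the Sox3U3-EGFP+ libraries, although PAX2 was lower in Lmx1aE1-EGFP+ cells and HMX3 had at most 10 counts in any library. Epibranchial markers summed to 127 to 139 CPM and 295 to 327 CPM, with all 6 tested genes higher in Sox3U3-EGFP+ cells, while NEUROG1 was too low to test. The groups also differed in markers of other cells. Neural crest markers summed to 789 to 867 CPM in Lmx1aE1-EGFP+ and 214 to 287 in Sox3U3-EGFP+ libraries (7 of 9 genes higher in the former, none in the latter), and epidermal markers to 666 to 976 and 3483 to 4439 CPM (7 of 8 genes higher in the latter). Markers of pharyngeal endoderm summed to 13.4 to 20.8 against 34.5 to 60.2 CPM. Of these, 3 of 7 tested genes were higher in Sox3U3-EGFP+ and 0 in Lmx1aE1-EGFP+ cells, with the largest difference in NKX2-6 (1.13 against 21.1 CPM). The other 4 tested genes, SHH, FOXA1, PAX9 and HHEX, did not pass. Markers of heart and epicardium summed to 11.6 to 26.5 against 26.2 to 129 CPM, with overlap through Sox3U3-EGFP+ library 3. Of these, 3 of 8 tested genes were higher in Sox3U3-EGFP+ and 0 in Lmx1aE1-EGFP+ cells. In all these counts, higher means an adjusted p under 0.05 in edgeR's quasi-likelihood test. Of all genes tested, 12.1% were higher in Lmx1aE1-EGFP+ and 11.3% in Sox3U3-EGFP+ cells. Eye markers, mostly CRYAB, summed to 24.7 to 44.5 against 5.36 to 15.1 CPM, and the sums of endothelium and blood (69.8 to 732 against 200.3 to 351 CPM) and neural tube (37.0 to 44.6 against 27.3 to 55.8 CPM) overlapped. The part of these differences in the results below was not tested.

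The retinoic acid genes leaned towards the epibranchial cells. CYP26A1, CYP26C1, DHRS3 and ALDH1A2 were higher in Sox3U3-EGFP+ cells, by 10.6-fold, 1.83-fold, 2.27-fold and 2.62-fold, and the remaining 6 genes did not pass the test. Expressed as Lmx1aE1-EGFP+ over Sox3U3-EGFP+, all 10 fitted log2 fold changes were below 0, with a median of -0.84, where the median over all tested genes was -0.04 and 53.4% of those genes were below 0. At an adjusted p under 0.05 in edgeR's quasi-likelihood test, 4 of the 10 genes were higher in the epibranchial cells and 0 in the otic cells, against 11.3% and 12.1% of all genes tested. With an absolute log2 fold change over 1.5 required as well, 1 gene, CYP26A1, was higher in the epibranchial cells and 0 in the otic cells, against 2.47% and 0.712% of all genes. Every epibranchial library lay above every otic library for these same 4 genes, the opposite separation occurred for 0 genes, and 12.3% and 13.7% of all genes were separated in those directions. The 10 genes were chosen with earlier results of these data known, so these shares describe them and are no independent test of the set. These are bulk libraries, in which more cells that express a gene and more RNA of that gene per cell cannot be told apart.

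**Figure D1:**
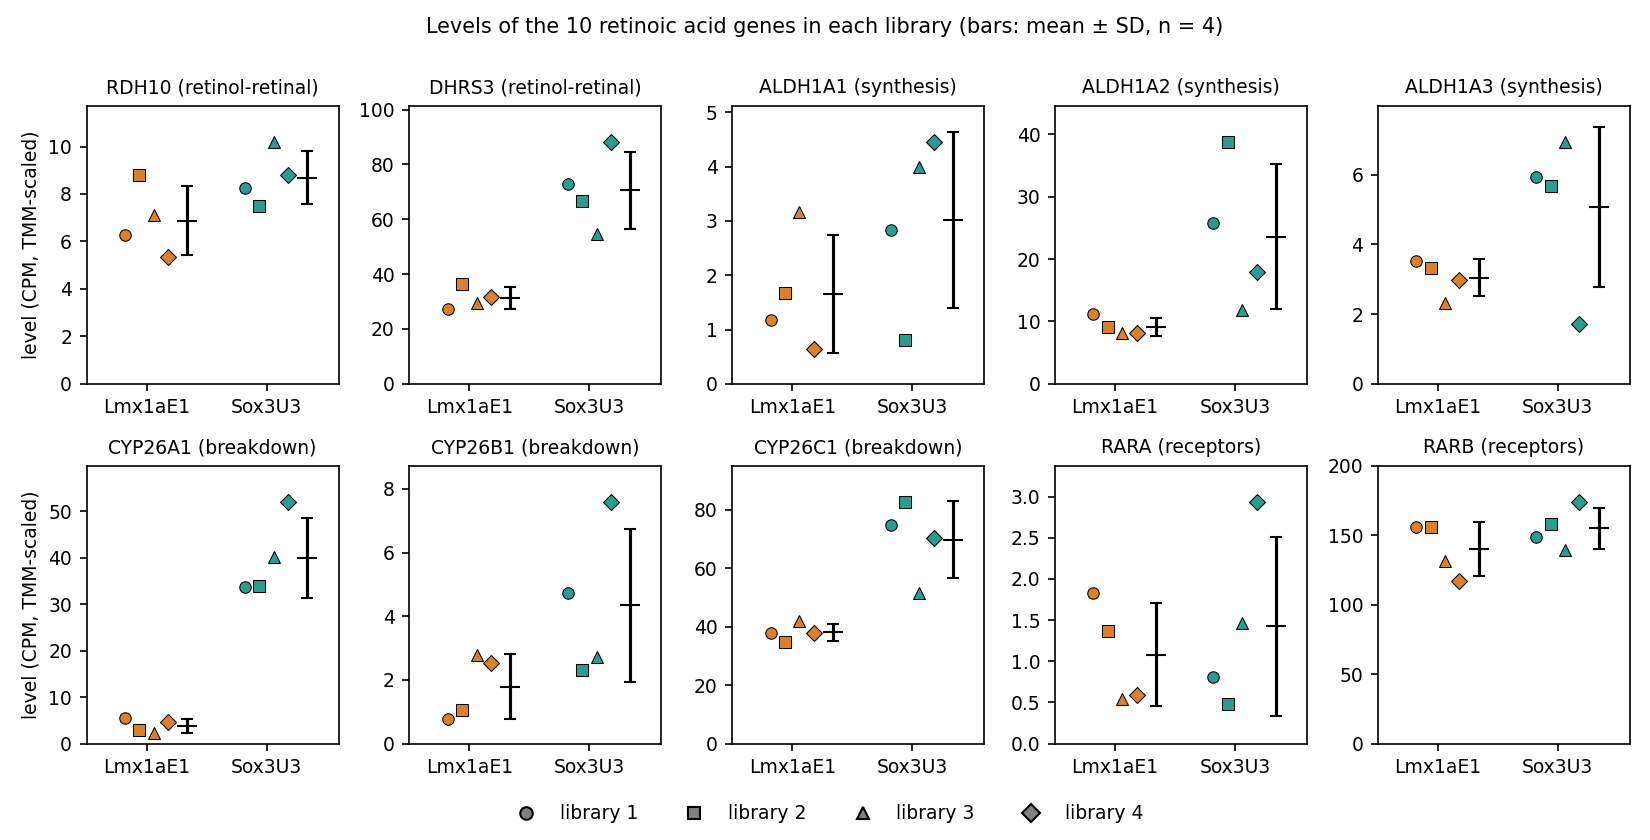
Level of each of the 10 retinoic acid genes, in CPM on a linear axis that starts at 0, in the 4 Lmx1aE1-EGFP+ (orange) and 4 Sox3U3-EGFP+ (green) libraries, with symbols for the library number and black bars for the mean ± SD (n = 4). CYP26A1 lay between 2.28 and 5.5 CPM in the Lmx1aE1-EGFP+ libraries and between 33.7 and 52.0 CPM in the Sox3U3-EGFP+ libraries, whereas RARB overlapped between the groups.

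The enzymes that break retinoic acid down gave the widest separation, and it was carried by CYP26A1. CYP26 enzymes are cytochromes P450 that hydroxylate retinoic acid, and CYP26A1 is induced by retinoic acid itself in many vertebrate tissues. In Lmx1aE1-EGFP+ libraries 1 to 4, CYP26A1 (ENSGALG00000033695) stood at 5.5, 3.03, 2.28 and 4.56 CPM. In Sox3U3-EGFP+ libraries 1 to 4 it stood at 33.7, 33.8, 40.1 and 52.0 CPM. The lowest Sox3U3-EGFP+ library was thus far above the highest Lmx1aE1-EGFP+ library. The means were 3.84 ± 1.45 and 39.9 ± 8.60 CPM (SD, n = 4 each), and the log2 fold change was -3.40 (standard error, SE, 0.25; 95% interval -3.93 to -2.86; adjusted p = 1.61e-07 by edgeR's quasi-likelihood method). By p-value CYP26A1 ranked at position 36 of the 16861 genes. CYP26A1 was not at zero in the otic cells, where it had 20 to 101 counts per library, against 382 to 1546 in the epibranchial cells.

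CYP26C1 (ENSGALG00000043213) was also higher in the epibranchial cells, but its libraries lay much closer together. It encodes a CYP26 enzyme known in vertebrate embryos from the hindbrain and head mesenchyme. Its Lmx1aE1-EGFP+ libraries stood at 37.8, 34.7, 41.9 and 37.9 CPM. Its Sox3U3-EGFP+ libraries stood at 74.9, 82.6, 51.4 and 70.2 CPM, again without overlap, and library 3 was the lowest of them. The log2 fold change was -0.87 (SE 0.14, adjusted p = 0.000342, edgeR), from means of 38.1 ± 2.95 and 69.8 ± 13.3 CPM (SD, n = 4). In the RefSeq annotation of the GRCg7b assembly, which is not the build the counts were made on, CYP26A1 and CYP26C1 are direct neighbours with 0 annotated genes between them.

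CYP26B1 (ENSGALG00000016102), the family member known for its part in the skeleton, limb and germ line of mammals, was low in every library. Its Lmx1aE1-EGFP+ libraries stood at 0.79, 1.06, 2.78 and 2.53 CPM and its Sox3U3-EGFP+ libraries at 4.74, 2.32, 2.73 and 7.59 CPM, on 6 to 217 counts. The groups overlapped through Sox3U3-EGFP+ libraries 2 and 3, which lay below the highest otic library. The log2 fold change of -1.16 (SE 0.44, 95% interval -2.08 to -0.24) did not pass the test (adjusted p = 0.0656, edgeR). The call hung on the method and the libraries, with an adjusted p of 0.0412 from DESeq2, 0.0468 from limma-voom, 0.0365 without Sox3U3-EGFP+ library 2 and 0.0297 within the 4 shallower libraries (log2 fold change -2.47), but 0.621 within the 4 deeper libraries (-0.41).

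**Figure D2:**
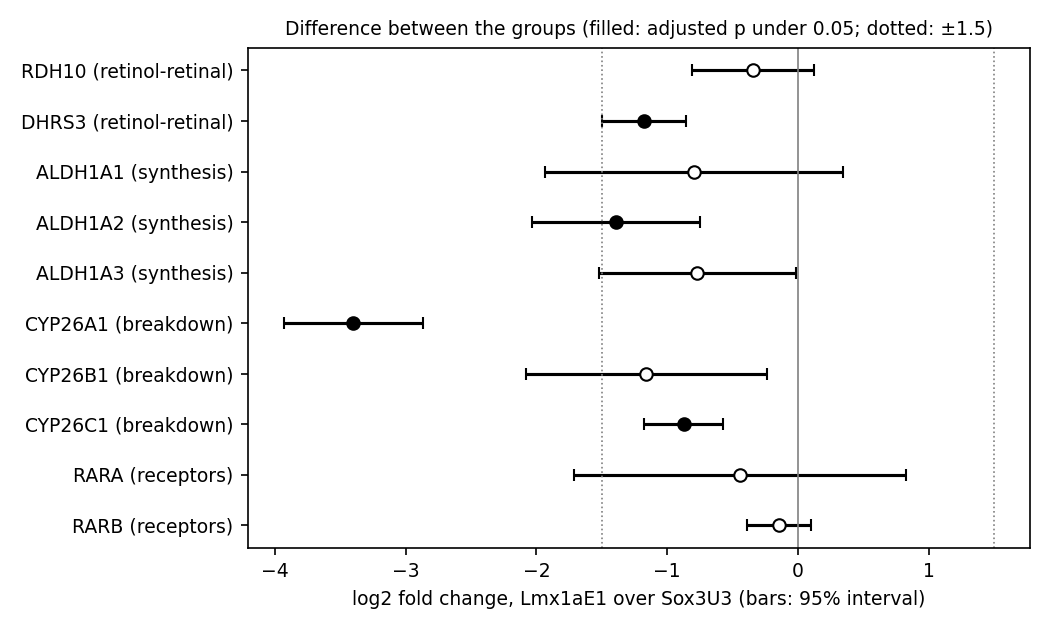
Log2 fold change of each gene, Lmx1aE1-EGFP+ over Sox3U3-EGFP+, from edgeR with 95% intervals; filled points have an adjusted p under 0.05, and dotted lines mark ±1.5. CYP26A1 alone lies beyond -1.5 with its whole interval (-3.93 to -2.86), and RARB has the narrowest interval (-0.39 to 0.10).

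Because CYP26A1 and CYP26C1 differed by unlike amounts, the balance of the family shifted between the groups. The ratio of CYP26C1 to CYP26A1 counts within a library, which is not corrected for gene length and is compared here only across libraries, was 6.88, 11.5, 18.3 and 8.30 in the otic libraries. It was 2.22, 2.44, 1.28 and 1.35 in the epibranchial libraries, so that the groups did not overlap. The ratio of CYP26A1 to CYP26B1 counts was 7.0, 2.86, 0.821 and 1.80 in the otic and 7.12, 14.6, 14.7 and 6.85 in the epibranchial libraries, with overlap through otic library 1, where CYP26B1 had 6 counts. The library total and scaling factor cancel within each ratio, and the ratios rest on the same counts as the fold changes above. The values still went with depth class in part. CYP26C1 to CYP26A1 was higher in the deeper epibranchial libraries 1 and 2 than in the shallower libraries 3 and 4. CYP26A1 to CYP26B1 was lower in the deeper otic libraries 3 and 4 than in the shallower libraries 1 and 2. Neither split held in the other group.

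At the first step of the pathway, the 2 enzymes of the retinol and retinal exchange behaved differently. RDH10 oxidises retinol to retinal, and DHRS3 reduces retinal back to retinol, which lowers the supply for the ALDH1A enzymes. DHRS3 (ENSGALG00000030376) stood at 27.1, 36.5, 29.5 and 31.7 CPM in the Lmx1aE1-EGFP+ libraries. In the Sox3U3-EGFP+ libraries it stood at 72.8, 66.5, 54.6 and 88.1 CPM, all above every otic library. The log2 fold change was -1.18 (SE 0.15, adjusted p = 3.69e-05, edgeR), from means of 31.2 ± 4.01 and 70.5 ± 14.0 CPM (SD, n = 4), and it was -1.17 within both the deeper and the shallower libraries. RDH10 (ENSGALG00000034346) ranged from 5.33 to 8.79 CPM in the otic and from 7.51 to 10.2 CPM in the epibranchial libraries. These ranges overlapped, and its log2 fold change of -0.35 did not pass the test (95% interval -0.81 to 0.12, adjusted p = 0.284, edgeR).

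Of the 3 enzymes that make retinoic acid, ALDH1A2 passed the test. ALDH1A2 is the main source of retinoic acid in the trunk mesoderm of vertebrate embryos, including the somites. ALDH1A2 (ENSGALG00000004270) stood at 11.3, 9.09, 8.14 and 8.13 CPM in the Lmx1aE1-EGFP+ libraries and at 25.7, 38.7, 11.9 and 17.9 CPM in the Sox3U3-EGFP+ libraries. The otic libraries were tightly grouped, while the epibranchial libraries spread 3.26-fold and the lowest of them, library 3, was close to the highest otic library. The means were 9.16 ± 1.47 and 23.6 ± 11.6 CPM (SD, n = 4), and the log2 fold change was -1.39 (SE 0.30, adjusted p = 0.00421, edgeR). The difference was unlike in the 2 depth classes. The log2 fold change was -1.96 within the 4 deeper libraries (adjusted p = 2.98e-05, edgeR) and -0.54 within the 4 shallower libraries (adjusted p = 0.268), where the call was lost. With all libraries thinned to the smallest total, the log2 fold change was -1.39 (adjusted p = 0.00134, edgeR). The cause of the difference between the depth classes was not tested. Leaving out each library in turn kept the call, with log2 fold changes from -1.60 to -1.04 and adjusted p from 0.000269 to 0.0211.

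Since ALDH1A2 is a mesoderm gene elsewhere in the embryo, it was set beside mesoderm markers in each library. The 8 somite and paraxial mesoderm markers summed to 36.5, 54.4, 66.9 and 69.6 CPM in the Lmx1aE1-EGFP+ libraries and to 73.7, 83.0, 40.9 and 52.4 CPM in the Sox3U3-EGFP+ libraries. Of the 7 that could be tested, 0 differed between the groups in either direction at an adjusted p under 0.05. The order of the epibranchial libraries by this sum (2, 1, 4, 3) was their order by ALDH1A2, and it was the same without MEOX1, the marker with the highest level, when the sums were 29.9, 33.9, 13.0 and 14.5 CPM. In the otic libraries the order was the reverse of that by ALDH1A2. In each group the deeper libraries (otic 3 and 4, epibranchial 1 and 2) had higher somite sums than the shallower libraries. The shared order in the epibranchial libraries therefore cannot be told apart from depth class. The 8 cranial mesenchyme and mesoderm markers summed to 726, 713, 791 and 817 CPM in the otic and 753, 950, 538 and 570.5 CPM in the epibranchial libraries, also in the order of ALDH1A2 in the latter. That sum was mostly COL1A2, and without it the 7 other markers summed to 109 to 159 CPM in the otic and 60.0 to 92.8 CPM in the epibranchial libraries, and the order no longer matched. The 8 heart and epicardium markers summed to 14.4, 17.9, 26.5 and 11.6 CPM in the otic and 129, 59.5, 26.2 and 76.5 CPM in the epibranchial libraries. Of these, 3 were higher in the epibranchial and 0 in the otic cells, against 11.3% and 12.1% of all genes. Their order (1, 4, 2, 3 in the epibranchial libraries) matched that of ALDH1A2 in neither group. With 4 libraries a group these orders are descriptions, and the part of mesoderm or heart cells in the ALDH1A2 difference was not tested.

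**Figure D3:**
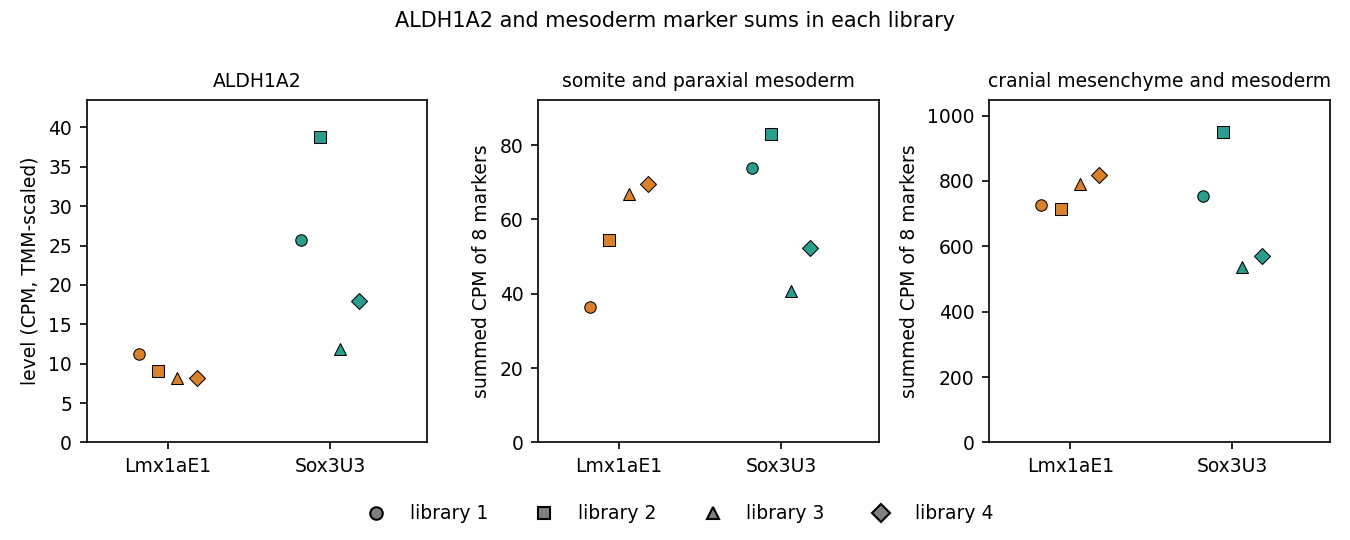
ALDH1A2 (CPM), the summed CPM of 8 somite and paraxial mesoderm markers and the summed CPM of 8 cranial mesenchyme and mesoderm markers in each library (linear axes from 0, orange Lmx1aE1-EGFP+, green Sox3U3-EGFP+, symbols for the library number). Sox3U3-EGFP+ libraries 1 and 2, with 25.7 and 38.7 CPM of ALDH1A2, also lie above libraries 3 and 4 in both marker sums, whereas the somite sums of the groups overlap. Libraries 1 and 2 are also the deeper Sox3U3-EGFP+ libraries.

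ALDH1A3 (ENSGALG00000033365), known from the eye, the nasal region and other ectoderm of vertebrate embryos, was lower than 7 CPM in every library. Its Lmx1aE1-EGFP+ libraries stood at 3.54, 3.33, 2.33 and 2.98 CPM and its Sox3U3-EGFP+ libraries at 5.94, 5.67, 6.93 and 1.72 CPM. Sox3U3-EGFP+ libraries 1 to 3 lay above all otic libraries, and library 4, with 17 counts, lay below them all. The log2 fold change of -0.77 (SE 0.36, 95% interval -1.52 to -0.02) did not pass the test over all genes (adjusted p = 0.132, edgeR), while without Sox3U3-EGFP+ library 4 it was -1.04 with an adjusted p of 0.0117. ALDH1A1 (ENSGALG00000015147), an enzyme of the dorsal retina and adult liver in several vertebrates, ranged from 0.63 to 3.16 CPM and from 0.81 to 4.45 CPM, on 9 to 130 counts. Its spread within a group covered the difference between the groups (log2 fold change -0.80, standard error 0.53, adjusted p = 0.310, edgeR), and within the deeper libraries the log2 fold change was 0.02.

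The ratio of ALDH1A2 to ALDH1A3 counts varied more among the epibranchial than among the otic libraries. It was 3.19, 2.73, 3.50 and 2.73 in the otic libraries and 4.33, 6.83, 1.71 and 10.4 in the epibranchial libraries. The otic libraries held a nearly constant ratio, and the epibranchial libraries lay on both sides of it, with the highest ratio in library 4, where ALDH1A3 had 17 counts. Set against the synthesis enzyme, CYP26A1 counts were 0.488, 0.333, 0.281 and 0.561 of ALDH1A2 counts in the otic libraries and 1.31, 0.873, 3.38 and 2.90 in the epibranchial libraries. Each epibranchial library thus had more CYP26A1 per ALDH1A2 count than each otic library, although ALDH1A2 was itself higher there. Among the epibranchial libraries this ratio was lower in the deeper libraries 1 and 2 than in the shallower libraries 3 and 4.

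**Figure D4:**
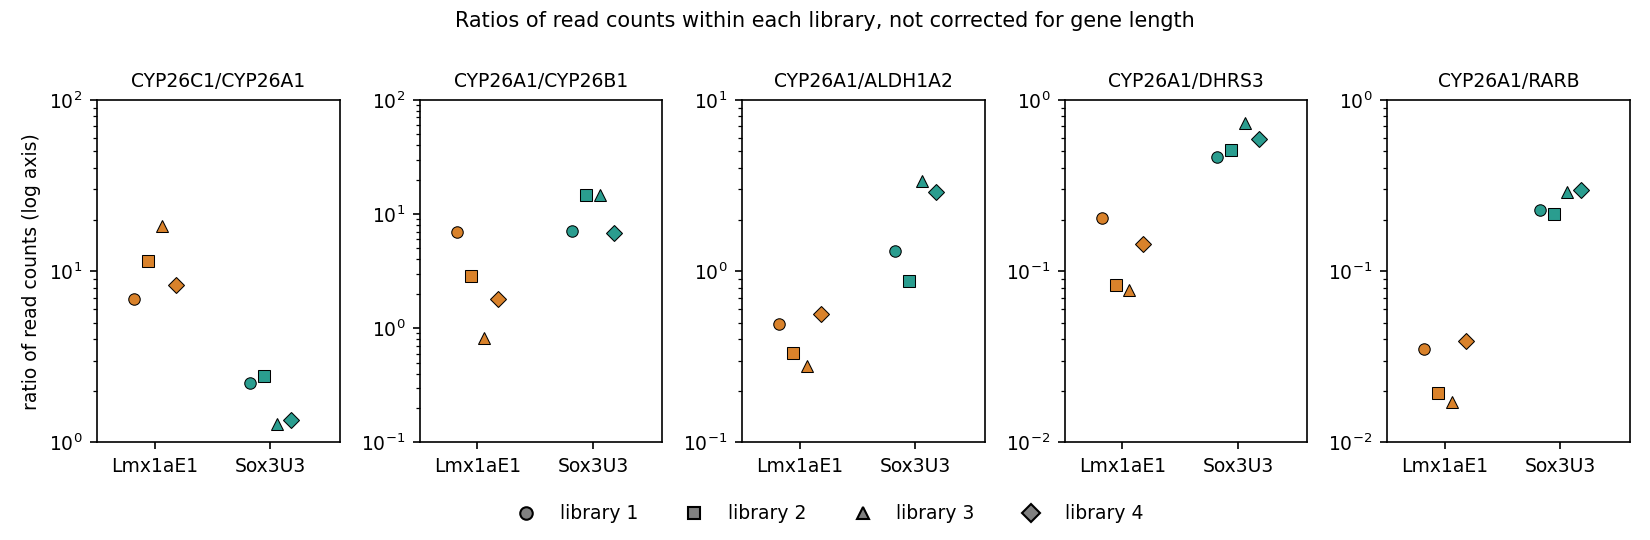
Ratios of read counts between gene pairs within each library (log axes, not corrected for gene length, orange Lmx1aE1-EGFP+, green Sox3U3-EGFP+, symbols for the library number). The groups separate for CYP26C1 over CYP26A1 and for CYP26A1 over ALDH1A2, DHRS3 and RARB, and they overlap for CYP26A1 over CYP26B1, where otic library 1 stands at 7.0.

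The receptors did not separate the groups. RARB (ENSGALG00000011298), a receptor whose gene is itself a retinoic acid target in many vertebrates, stood at 156, 156, 132 and 117 CPM in the Lmx1aE1-EGFP+ libraries and at 149, 158, 139 and 174 CPM in the Sox3U3-EGFP+ libraries. The groups overlapped, and the otic spread alone reached 1.34-fold. The means were 140 ± 19.4 and 155 ± 14.8 CPM (SD, n = 4), the log2 fold change was -0.15 (SE 0.11, adjusted p = 0.389, edgeR), and its 95% interval of -0.39 to 0.10 holds no difference as large as those of CYP26A1, CYP26C1, DHRS3 or ALDH1A2. RARB had 1031 to 6811 counts per library, so that few counts did not limit this comparison. RARA (ENSGALG00000037935), the most widely expressed retinoic acid receptor in many tissues of other vertebrates, had 9 to 37 counts per library. It ranged from 0.54 to 1.83 CPM in the otic and from 0.49 to 2.93 CPM in the epibranchial libraries, a 6.03-fold spread in the latter. With these few counts and this spread, no difference was detected (log2 fold change -0.44, 95% interval -1.71 to 0.83, adjusted p = 0.637, edgeR). Relative to RARB, CYP26A1 counts were 0.0352, 0.0194, 0.0173 and 0.0391 in the otic and 0.227, 0.214, 0.288 and 0.299 in the epibranchial libraries. Relative to DHRS3 they were 0.203, 0.0830, 0.0775 and 0.144 in the otic and 0.463, 0.509, 0.735 and 0.590 in the epibranchial libraries. These ratios rest on the same counts as the fold changes, and restate that CYP26A1 differed between the groups by more than either gene.

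Genes around these enzymes and receptors were counted from further lists, which were written with earlier results of these data known. The first list held proteins that take up, store or bind retinoids. Of 13 tested genes, 6 were higher in the otic cells, 1 was higher in the epibranchial cells and 6 did not pass, against 12.1% and 11.3% of all genes tested, with a median log2 fold change of 0.43. The 3 largest otic differences were RLBP1, a retinal-binding protein of the eye (18.7 ± 2.70 against 5.49 ± 1.65 CPM, log2 fold change 1.79), RBP4A, of the retinol-binding protein family (1.68), and CRABP-I. CRABP-I, the chick name of the cellular retinoic acid-binding protein that holds retinoic acid in the cytoplasm, stood at 436, 396, 349 and 279 CPM in the otic and 124, 115, 179 and 108 CPM in the epibranchial libraries. Its groups did not overlap (log2 fold change 1.47, standard error 0.17, adjusted p = 6.86e-05, edgeR). CRABP2, which carries retinoic acid to its receptors, was higher in the same cells at 80.2 ± 5.34 against 49.1 ± 8.33 CPM (SD, n = 4, log2 fold change 0.71, adjusted p = 0.000838). Both binding proteins are also known from neural crest or mesenchyme. Crest markers were higher in the otic libraries, while the cranial mesenchyme and mesoderm sums overlapped and were higher there only without COL1A2. The part of these cells in the differences of CRABP-I and CRABP2 was not tested. RBP5, a cellular retinol-binding protein, was the gene higher in Sox3U3-EGFP+ cells (-0.42), and STRA6, the membrane receptor for retinol uptake, overlapped (120 to 277 against 186 to 224 CPM, -0.21, adjusted p = 0.550). The largest absolute fold change of the list was that of TTR, a carrier of retinol-binding protein in the blood (-2.59, adjusted p = 0.0600, not past the test). TTR stood at 0.52 to 1.36 CPM in the otic and 1.47 to 15.02 CPM in the epibranchial libraries, without overlap. Its epibranchial mean was 5.17 ± 6.58 CPM (SD, n = 4), most of it from the highest library.

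Other retinol and retinal dehydrogenases and reductases mostly did not pass, with 2 of 13 higher in otic cells and 0 in epibranchial cells, near the 12.1% of all genes in the former direction and against 11.3% in the latter. These were RDH14 (log2 fold change 0.86, adjusted p = 0.0265, edgeR) and ADH5, a widely expressed alcohol dehydrogenase (0.30, adjusted p = 0.0333). The 11 remaining enzymes did not pass in either direction.

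Among 15 other receptors and cofactors, 9 were higher in the otic cells and 1 in the epibranchial cells, against 12.1% and 11.3% of all genes, with a median log2 fold change of 0.60. RXRG, a partner receptor that pairs with RARs on DNA, stood at 130, 140, 145 and 169 CPM in the otic libraries and at 30.0, 34.0, 29.1 and 18.7 CPM in the epibranchial libraries. The groups lay far apart (log2 fold change 2.38, standard error 0.16, adjusted p = 3.88e-08, edgeR), and RXRG was the gene of this list past the fold-change threshold of 1.5. RXRG is known from migrating neural crest cells of the chick, and crest markers were higher in the same libraries. The part of crest cells in the RXRG difference was not tested. RXRA was higher by a smaller amount and with overlap (40.5 ± 6.86 against 26.3 ± 5.55 CPM, 0.62, adjusted p = 0.0146), and RARG, with 5 to 39 counts, did not pass (0.50, adjusted p = 0.462). NR2F1, an orphan receptor that competes for the same DNA elements (1.39), and ZBTB16, a transcriptional repressor (0.84), were the next largest otic differences, and NCOA2, a coactivator, was the gene higher in Sox3U3-EGFP+ cells (-0.68).

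Genes known to respond to retinoic acid in vertebrates did not go a single way. Of 27 tested genes, 7 were higher in the otic cells, 9 were higher in the epibranchial cells and 11 did not pass, against 12.1% and 11.3% of all genes, with a median log2 fold change of -0.07. HOXB1, a hindbrain patterning gene with retinoic acid response elements known from the mouse, stood at 82.0, 70.3, 74.5 and 69.3 CPM in the otic and 176, 162, 183 and 241 CPM in the epibranchial libraries. These did not overlap (log2 fold change -1.36, standard error 0.12, adjusted p = 1.11e-06, edgeR). The 3 largest differences towards Sox3U3-EGFP+ cells were FGF8, a growth factor that retinoic acid represses in the trunk (-2.89), and the trunk and posterior hindbrain genes HOXA5 (-2.14) and HOXB5 (-1.49). HOXA5 was low, with means of 1.20 CPM in the otic and 5.28 CPM in the epibranchial cells on 4 to 224 counts, without overlap. The differences towards Lmx1aE1-EGFP+ cells included HOXD3 (1.76, on 2 to 160 counts and with overlap) and NR2F1 (1.39, on 4 to 120 counts and without overlap), which is on both lists. Among HOX genes of this list, HOXA2, HOXB3, HOXD3 and HOXD4 were higher in the otic cells, HOXA4, HOXA5, HOXB1, HOXB4 and HOXB5 were higher in the epibranchial cells, and HOXA3 and HOXB2 did not pass.

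**Figure D5:**
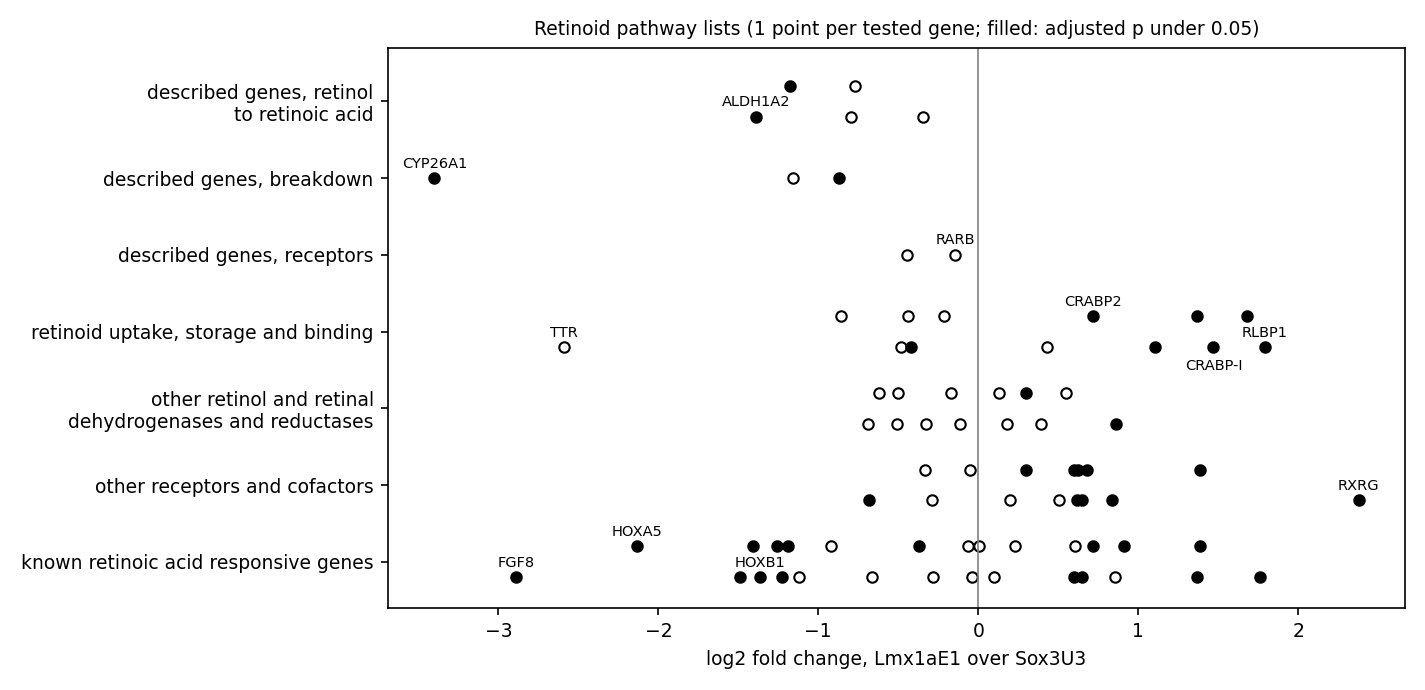
Log2 fold change, Lmx1aE1-EGFP+ over Sox3U3-EGFP+, of every tested gene of the 10 described genes and of 4 lists of related genes (1 point per gene, filled where the adjusted p is under 0.05; the vertical offset within a row only separates points). The breakdown enzymes lie to the left of 0, from CYP26A1 at -3.40, and responsive genes lie on both sides. Binding proteins and partner receptors reach 1.79 (RLBP1) and 2.38 (RXRG) on the right. Their lists also hold genes on the left, such as TTR at -2.59 (open), RBP5 at -0.42 and NCOA2 at -0.68 (filled).

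Profiles over the 8 libraries were compared for the 4 genes that passed the test, by the root mean square difference of log2 CPM after centring each gene on its mean, among 11376 named genes with a mean of at least 1 CPM. For CYP26A1 the nearest were C1QTNF12 at 0.33, FGF8 at 0.34 and RIPPLY3 at 0.35 log2 units. FGF8 stood at 3.54, 2.73, 2.70 and 4.88 CPM in the otic and 21.2, 22.6, 25.2 and 36.0 CPM in the epibranchial libraries, where library 4 was highest for FGF8 as for CYP26A1. For ALDH1A2 the nearest were NRG2 (0.23), MXRA8 (0.27) and KCNT1 (0.29). For DHRS3 they were DZIP1L (0.099), SFXN3 (0.10) and SYTL4 (0.13), and for CYP26C1 they were DISP1 (0.084), BMP4 (0.099) and BRPF3 (0.12). Each of these genes was itself higher in Sox3U3-EGFP+ cells at an adjusted p under 0.05, and the likeness is a description over 8 libraries that fall into 2 groups.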

How the data were processed

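The authors processed the reads with the NF-core RNAseq pipeline at default settings, with STAR on galGal6, per the study's methods, and the submitters' processing notes name Trim Galore and featureCounts. The table the authors deposited holds raw counts, in whole numbers, for Ensembl genes. Whether counting used strand is not given in the sources used here, so overlapping or antisense genes and shared reads of related genes are uncertain. Library totals were 6559872 to 45183366 counts. In all 28 pairs of libraries the chi-square per degree of freedom was at least 3.60, above counting error.

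Counts were filtered with filterByExpr, scaled by TMM and tested in R 4.3.3 by edgeR 4.0.16 (quasi-likelihood, robust estimation) on all 8 libraries, with group as the only term, and p-values were adjusted by Benjamini-Hochberg over 16861 genes. The second threshold, an absolute log2 fold change over 1.5, is the study's. Alternatives included DESeq2 1.42.0, limma-voom (limma 3.58.1), other scalings and filters, thinning, depth classes, the replicate block and leaving out each library. On counts simulated from each gene's mean over both groups, edgeR recovered 50% of 94 genes at an absolute log2 change of 1. It recovered 89.7% of 97 at 2, with 5 false calls among 16433 genes. Far fewer genes were changed there than the 2033 and 1904 called in the real data, so these shares need not hold for the real data. The 10 genes, the lists and the depth classes were chosen with earlier results of these data known. Described are all 10 genes, and per list up to 3 called genes in each direction with the largest fold changes and at least 1 CPM, besides RARG, RXRA, RXRG, CRABP2, CRABP-I and HOXB1. STRA6, TTR and the other HOX genes named were added after their values were seen. Some genes that this rule or these lists hold are not reported here. The table uses no row named CRABP1 or RXRB.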

Additional observations from a re-analysis of the deposited data

How the results depend on the processing

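The 4 genes called at an adjusted p under 0.05 (CYP26A1, CYP26C1, DHRS3 and ALDH1A2) kept their direction in all 19 alternatives, and the call of ALDH1A2 was lost in 1 of them, within the shallower libraries. The count of genes higher in Sox3U3-EGFP+ cells was 4 in the main analysis, 5 at an adjusted p under 0.1, with DESeq2, with thinned libraries, within the deeper libraries, without Sox3U3-EGFP+ library 2 and without Sox3U3-EGFP+ library 4, and 6 with limma-voom. The log2 fold change of CYP26A1 ranged from -3.56 to -3.18. The number past both thresholds was 2 in place of 1 within the deeper libraries (with ALDH1A2, -1.96) and within the shallower libraries (with CYP26B1, -2.47), and from 1 to 2 when each library was left out (with ALDH1A2, without Sox3U3-EGFP+ library 3 or without library 4). The cause was not tested. ALDH1A1 turned to 0.025 within the deeper libraries, and RARA to 0.048 with limma-voom and to between -0.82 and 0.18 when each library was left out, all without passing the test. ALDH1A3 passed in 3 alternatives and CYP26B1 in 5. ALDH1A1, CYP26B1 and RARA gave no value where at least 10 counts were required in every library, nor did RARA in thinned libraries.

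Libraries with the same number did not deviate together (correlations -0.11, -0.23, 0.046 and -0.16), so the numbers were not taken to pair them. With the replicate block 4 and 1 of the retinoic acid genes passed, as without it, and over all genes 1550 and 1464 were called in place of 2033 and 1904. RARA, ALDH1A1 and CYP26B1 had as few as 9, 9 and 6 counts in a library. CYP26B1 passed within the shallower and not within the deeper libraries, and ALDH1A1 differed between the deeper Lmx1aE1-EGFP+ libraries 3 and 4 beyond counting error (95% Poisson intervals 2.49 to 3.95 and 0.35 to 1.06 CPM).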
